A study of Mus musculus with 6 samples.

Results

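The genes described here are those of the NRF2, glutathione and antioxidant system, 39 genes taken by symbol, including the carbonyl reductases Cbr1, Cbr2 and Cbr3. All 39 were listed among the 30349 genes of the table, and the rule that picks them uses no measured value, though the list was drawn up with earlier results of these data known. RNA was measured in cultured primary mouse epidermal keratinocytes in 6 libraries. Of these, 3 were wild type (replicates 13, 14 and 15) and 3 carried the genotype named p63 alphaKO (replicates 9, 10 and 11). All cells came from skin of mice at postnatal day 2 and grew for 5 to 6 days in medium with 4% chelated serum, 2.5 ng/mL EGF and calcium held at 0.05 mM. The assay reads the 3' ends of transcripts, and each level is given in CPM, the reads of a gene per 1000000 reads. What the alphaKO allele removes from Trp63 is not stated in the labels, and neither is whether replicates are separate animals. Xist, the RNA made from an inactive X, differed within each group. Its CPM were 290.6, 0 and 0.32 for replicates 13, 14 and 15. For replicates 9, 10 and 11 they were 0, 0 and 673.0. Cells of both sexes are thus present in each group, so its libraries did not all come from the same animal. The p-values measure the spread between these libraries, which may be technical in part.

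NRF2, encoded by Nfe2l2, is a transcription factor that switches on genes of detoxification and redox defence. KEAP1 holds it in the cytoplasm and passes it to a ubiquitin ligase for destruction; oxidants and electrophiles modify cysteines of KEAP1, and NRF2 then builds up, pairs with small MAF proteins and binds antioxidant response elements in DNA. Much of this control acts on the protein, so the RNA level of Nfe2l2 is no direct measure of its activity. In the epidermis the system is known for protecting keratinocytes from ultraviolet light, reactive oxygen and chemicals. p63, encoded by Trp63, is a master regulator of stratified epithelium, and alpha names those of its isoforms with the longest C-terminus.

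The libraries held 1699716 to 3215333 reads, the fewest in p63 alphaKO replicate 11. A gene at 3 reads would stand at 0.933 CPM where depth was greatest and at 1.76 CPM where it was least. Trp63 was at 38.0, 53.2 and 48.9 CPM in wild type against 49.8, 59.3 and 57.0 CPM in p63 alphaKO, which does not check the genotype, since a value per gene does not say which isoform was read. The defining keratinocyte keratins Krt5 and Krt14 were at 8471 to 11423 and 10394 to 15124 CPM over the 6 libraries. The 8 keratinocyte markers summed to 25400 to 27930 CPM in wild type against 21580 to 29330 CPM in p63 alphaKO, the lowest sum in replicate 11. Melanocyte markers (8 genes) added up to 303.4 and 232.2 CPM in wild type replicate 15 and p63 alphaKO replicate 11, against 551.2 to 1018 CPM in the other 4 libraries. Muscle markers (8 genes, Myh3 listed at 0 throughout) separated the groups: they summed to 70.1, 80.2 and 645.5 CPM in wild type against 17.4, 30.0 and 65.2 CPM in p63 alphaKO, so every p63 alphaKO library lay below every wild type library. None of them passed the threshold. Acta1 and Ttn, with no overlap between the groups, had log2 fold changes of -3.02 and -3.66 (limma adjusted p = 0.310 and 0.293). Of all tested genes, 5.09% lay lower in p63 alphaKO without overlap. The other tested muscle markers, Tnnc2, Des, Mylpf and Tnnt3, overlapped between the groups, with log2 fold changes from -2.70 to -0.80. Fibroblast markers summed to 5.88 to 43.4 CPM, sebaceous gland markers to 44.1 to 95.1 CPM and hair follicle markers to 230.4 to 491.1 CPM. Most of the hair follicle sum was Sox9 (228.6 to 471.6 CPM). Krt15 of that list was at 16.3, 8.39 and 17.8 CPM in wild type against 2.74, 4.67 and 1.18 CPM in p63 alphaKO, without overlap. Its log2 fold change was -2.02 (limma adjusted p = 0.299). Of the 3 hair follicle markers tested, Sox9 and Lhx2 overlapped between the groups. Endothelial and erythroid markers summed to at most 5.29 CPM in any library. Immune and Langerhans markers summed to at most 8.67 CPM, with Cd207, Adgre1, Cd3e and H2-Aa listed at 0 throughout. The part that such cells have in the results below was not tested.

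Sequence near RefSeq starts shows which of these genes carry letters that match the core of an antioxidant response element. RefSeq promoter windows (build GRCm38.p6, 250 bases before the start to 50 after it) matched 33 of the 39 genes (all but Abcc1, Gclc, Gsr, Gsta4, Hmox1 and Prdx6). The core searched was TGACNNNGC on either strand. It was found for 10 of these 33 genes (30.3%), against 16.9% of the 9110 tested genes with a window and 14.0% of all 27025 genes with one. For the looser core TGANNNNGC the shares lay closer, at 54.5% of the 33 genes and 47.9% of the tested genes. Counted by window rather than by gene, the shares were 23.8% of 42 windows and 12.4% of 32851. The 6 below are shown because they belong to the factor itself, to classical NRF2 targets, or to the 2 genes in which the core overlaps the AP-1 motif TGANTCA. Each is read 5′ to 3′ on the strand that carries the core, with the core in capitals.
Prdx1 (chr4:116685466-116685474, minus strand): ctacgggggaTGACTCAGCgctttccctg
Me1 (chr9:86695912-86695920, minus strand): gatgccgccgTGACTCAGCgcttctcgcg
Gclm (chr3:122245423-122245431, minus strand): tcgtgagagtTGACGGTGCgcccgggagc
Srxn1 (chr2:152105552-152105560, minus strand): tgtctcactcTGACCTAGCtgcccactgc
Txnrd1 (chr10:82859114-82859122, minus strand): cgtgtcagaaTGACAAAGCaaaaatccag
Nfe2l2 (chr2:75704895-75704903, minus strand): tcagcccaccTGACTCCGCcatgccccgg
The coordinates are those of the core. A RefSeq start need not be the outermost start of its gene. The Txnrd1 window lies inside the gene as GENCODE vM21 gives it (82833951 to 82897712, plus strand). Prdx1 and Me1 carry the same core, centred 129 bases before the start in Prdx1 and 2 bases before it in Me1. The other 4 genes with the core were Pgd, Mgst1, Sod1 and G6pdx. The AP-1 motif was found for 6 of the 33 genes (18.2%), namely Gstp1, Me1, Mgst2, Osgin1, Prdx1 and Srxn1, against 6.34% of the tested genes. A match is a description of the letters, and binding was not measured.

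The comparison asks how the antioxidant genes of p63 alphaKO keratinocytes stand against wild type. No member passed the threshold (limma, adjusted p under 0.05 over the 11716 genes tested), where 0.0427% of all tested genes did. All 39 members had a mean of at least 1 CPM and were tested. The gene with the strongest difference was Cbr2, a carbonyl reductase, 2.38-fold higher in p63 alphaKO, and it was the 1 member with an unadjusted p under 0.05, against 6.36% of all tested genes. Among the alternative tools, edgeR called no member (0.0171% of all genes) and DESeq2 called Cbr2 alone (0.154% of all genes). Cbr2 was also the 1 member with an unadjusted p under 0.05 by either tool, against 6.15% of all genes by edgeR and 5.54% by DESeq2. Wild type and p63 alphaKO values did not overlap for Cbr2 and Prdx6, 2 of 39 members, against 11.5% of all genes. Both were on the higher side (6.45% of all genes), and 0 of 39 were on the lower side (5.09%). Of the 39 log2 fold changes 27 were above 0, against 50.7% of all genes, and their median was 0.13 against 0.006. In bulk RNA, fewer cells that express a gene and less RNA per cell cannot be told apart.

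This lean upward was small beside the spread between libraries. Without p63 alphaKO replicate 11 the members' median was 0.01, with 21 of 38 tested above 0, below the 0.039 of all genes. Without wild type replicate 14 it was 0.02 with 23 (all genes 0.006). Without p63 alphaKO replicate 9 it was 0.06 with 21 of 38 (all genes -0.001). Without p63 alphaKO replicate 10 it was 0.23 with 27 (all genes -0.008). Leaving out wild type replicate 13 gave 0.12 with 26 (all genes 0.02), and replicate 15 gave 0.14 with 26 (all genes -0.002). Without wild type replicate 15 and p63 alphaKO replicate 11 together it was 0.13 with 24 of 38 (all genes 0.028). The 95% interval of the difference included 0 for 38 of 39 members. For 24 of them it lay inside a 2-fold change in either direction, so larger changes are outside the interval for those genes. The 3' ends of 8 members overlap a gene on the opposite strand (Keap1, Gclm, Gss, Prdx2, Gpx2, Sod1, Gsto1 and G6pdx); the counting is not stated to use strand, so reads of both partners cannot be told apart there. The widest intervals belonged to genes of few reads, such as Osgin1 (-1.31 to 1.58) and Gsta1 (-0.74 to 1.96).

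**Figure D1:**
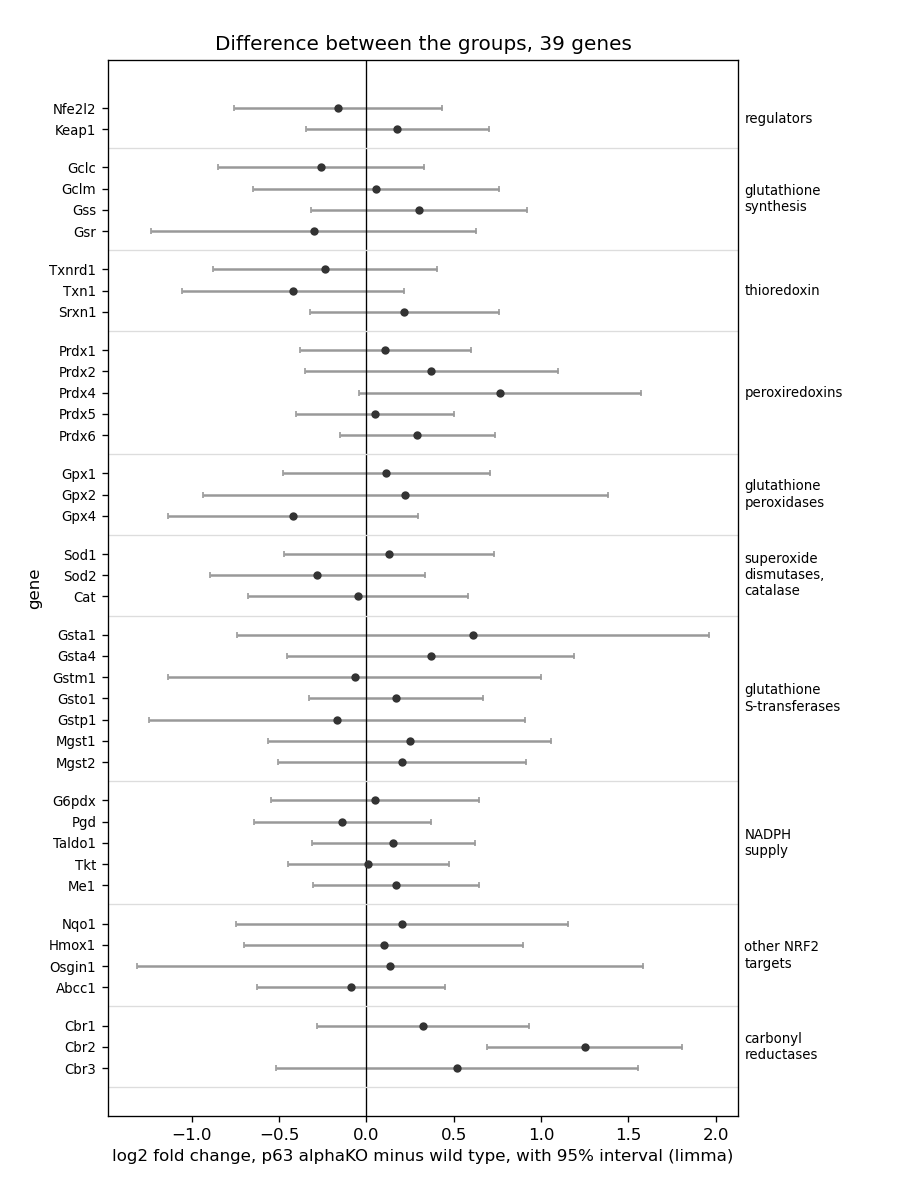
Log2 fold change of each of the 39 genes, p63 alphaKO minus wild type (points), with the 95% interval from limma (bars), grouped by role. The interval of Cbr2 (0.69 to 1.81) lies above 0, and those of the other 38 genes include 0.

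The carbonyl reductases use NADPH to turn reactive aldehydes, ketones and quinones into alcohols. Cbr2 encodes a mitochondrial member known from mouse lung. It was read at 39.3, 37.9 and 54.0 CPM in wild type (replicates 13, 14 and 15, in this order throughout) against 79.0, 108.0 and 131.7 CPM in p63 alphaKO (replicates 9, 10 and 11). Every p63 alphaKO library lay above every wild type library. The means were 43.7 ± 8.92 CPM and 106.2 ± 26.4 CPM (SD, n = 3 each), on 417 and 721 reads. The log2 fold change was 1.25 (SE 0.27, 95% interval 0.69 to 1.81, limma adjusted p = 0.286), and 5 genes of the table had a smaller p. By DESeq2 the adjusted p was 0.0209, by edgeR's quasi-likelihood test it was 0.233, and over all alternatives it ran from 0.0191 to 0.999.

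Leaving out 1 library at a time kept Cbr2 between 1.08 and 1.44 on the log2 scale and did not bring it past the threshold (limma adjusted p from 0.144 to 0.999). Without both wild type replicate 15 and p63 alphaKO replicate 11, the 2 libraries lowest in melanocyte markers, of which replicate 15 was also the highest in muscle markers, the log2 fold change was 1.24 and the limma adjusted p 0.0191. That fit compares 2 libraries with 2 and called 48 genes, 0.413% of those tested. It leaves out the library of each group in which Cbr2 was highest (54.0 and 131.7 CPM), so passing there adds no support. The muscle marker sums and Krt15 given above also separate the groups, in the opposite direction to Cbr2, and their part in its difference was not tested.

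Cbr2 lies on chromosome 11 (120729489 to 120732114, minus strand; GENCODE vM21, GRCm38). The 250 bases before its RefSeq start are shown because Cbr2 is the member with the strongest difference. The window of 300 bases around that start holds neither the antioxidant core nor the AP-1 motif, so no base is in capitals.
Cbr2 (chr11:120732022-120732271, minus strand): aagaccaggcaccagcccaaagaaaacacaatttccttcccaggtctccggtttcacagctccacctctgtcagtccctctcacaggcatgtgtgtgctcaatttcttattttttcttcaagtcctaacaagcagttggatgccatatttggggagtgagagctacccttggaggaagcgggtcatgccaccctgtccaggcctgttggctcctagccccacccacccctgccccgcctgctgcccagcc
That says only that those letters are not in the window. The windows of Cbr1 and Cbr3 likewise held neither motif. The Cbr1 window (250 bases before the start at 93607587 to 93607836) lies inside its GENCODE gene, which starts at 93605853. Sequence around that outer start was not searched. The printed Cbr2 stretch likewise reaches into the GENCODE span of Cbr2, which ends at 120732114.

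Cbr1, the cytosolic carbonyl reductase that also acts on prostaglandins, was at 67.9, 50.4 and 75.3 CPM in wild type against 65.3, 62.7 and 124.0 CPM in p63 alphaKO. Only p63 alphaKO replicate 11 lay above the wild type range. Its log2 fold change was 0.32 (SE 0.29, 95% interval -0.28 to 0.93, limma adjusted p = 0.919) and 0.01 without that library. Cbr3, a close relative of Cbr1 and its neighbour on chromosome 16 (Cbr1 at 93605853 to 93610505, Cbr3 at 93683215 to 93690990, both on the plus strand), was at 8.17, 2.49 and 11.1 CPM in wild type against 11.4, 5.33 and 13.5 CPM in p63 alphaKO. The groups overlapped, with wild type replicate 14 lowest. Its log2 fold change was 0.52 (SE 0.49, 95% interval -0.52 to 1.55, limma adjusted p = 0.926) and -0.01 without wild type replicate 14. The last 500 bases of Cbr1 and Cbr3 transcripts share no run longer than 14 bases.

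The nearest relative of Cbr2 outside the list is Dcxr, which encodes the L-xylulose reductase. It lies 2207 bases beyond the 3' end of Cbr2 on the same strand (chromosome 11, 120725399 to 120727281). Dcxr was at 76.4, 72.1 and 64.8 CPM in wild type against 76.3, 103.0 and 115.8 CPM in p63 alphaKO, so p63 alphaKO replicate 9 lay within the wild type range. Its log2 fold change was 0.45 (SE 0.24, 95% interval -0.07 to 0.96, limma adjusted p = 0.816). The last 500 bases of the Cbr2 and Dcxr transcripts share no run longer than 12 bases.

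**Figure D2:**
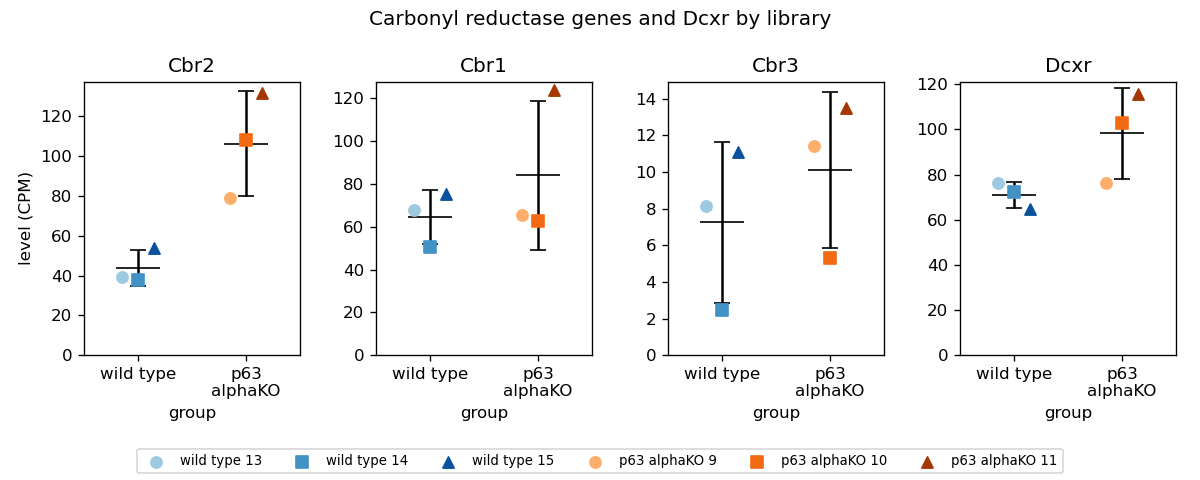
Level in CPM (y axis, from 0, with its own scale in each panel) of Cbr2, Cbr1, Cbr3 and the neighbouring gene Dcxr in each library, by group. Horizontal bars are means and whiskers are SD (n = 3). For Cbr2 the p63 alphaKO libraries (79.0 to 131.7 CPM) all lie above the wild type libraries (37.9 to 54.0 CPM), and the groups overlap for the other 3 genes.

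The regulators were measured at similar means in both groups. Nfe2l2 (chromosome 2, 75675513 to 75704641, minus strand) was at 171.2, 164.4 and 141.4 CPM in wild type against 190.4, 179.3 and 82.9 CPM in p63 alphaKO. Within p63 alphaKO, replicates 9 and 10 lay above every wild type library and replicate 11 lay below every one. The log2 fold change was -0.16 (SE 0.28, 95% interval -0.76 to 0.44, limma adjusted p = 0.981), and 0.22 without replicate 11. Keap1 (chromosome 9, 21229730 to 21239361, minus strand) was at 64.4, 65.6 and 74.3 CPM in wild type against 90.0, 85.3 and 59.4 CPM in p63 alphaKO. It showed the same order, with replicates 9 and 10 above the wild type range and replicate 11 below it, and a log2 fold change of 0.18 (95% interval -0.35 to 0.70, limma adjusted p = 0.960).

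Glutathione, the tripeptide that serves as the main small thiol of the cell, is made by glutamate-cysteine ligase and glutathione synthetase. Gclc, the catalytic subunit of the ligase, was at 38.7, 42.3 and 35.9 CPM in wild type against 24.2, 40.0 and 34.7 CPM in p63 alphaKO, with replicate 9 lowest. Gss, the synthetase, was at 28.0, 26.4 and 21.3 CPM in wild type against 25.6, 29.3 and 40.0 CPM in p63 alphaKO, with replicate 11 highest. Both genes overlapped between the groups (log2 fold changes -0.26 and 0.30). Gclm, the modifier subunit of the ligase, ranged from 16.2 to 32.9 CPM over all libraries (0.06), and Gsr, which returns oxidised glutathione to its reduced form, from 3.67 to 13.3 CPM (-0.30). The 4 genes together gave 95.5 ± 6.27 CPM in wild type against 95.6 ± 6.51 CPM in p63 alphaKO (SD, n = 3 each).

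The thioredoxin system reduces protein disulphides and recharges peroxiredoxins. Txn1, thioredoxin itself, was at 362.6, 488.1 and 395.5 CPM in wild type against 261.7, 198.3 and 560.7 CPM in p63 alphaKO. Replicates 9 and 10 lay below every wild type library, and replicate 11 lay above every one. The log2 fold change was -0.42 (SE 0.30, 95% interval -1.06 to 0.21, limma adjusted p = 0.885). It was -0.85 without p63 alphaKO replicate 11 (limma adjusted p = 0.169), and -0.88 without that library and wild type replicate 15 (limma adjusted p = 0.0421), where Txn1 passed together with Cbr2. Both fits leave out the p63 alphaKO library in which Txn1 was highest, so passing there adds no support. Over the other alternatives the adjusted p of Txn1 ran from 0.824 to 0.999, and without p63 alphaKO replicate 10 its log2 fold change was -0.10. Txnrd1, the reductase that recharges thioredoxin with NADPH, was at 83.9, 69.3 and 43.5 CPM in wild type against 53.0, 76.0 and 38.2 CPM in p63 alphaKO, and the groups overlapped (-0.24). Srxn1, sulfiredoxin, which rescues overoxidised peroxiredoxins, ranged from 45.6 to 69.4 CPM over all libraries (0.22).

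The peroxiredoxins are thiol peroxidases that remove hydrogen peroxide. All 5 had log2 fold changes above 0, from 0.05 to 0.77, and Prdx1, Prdx2 and Prdx5 were below 0 without p63 alphaKO replicate 11 (-0.09, -0.03 and -0.07). Prdx6, which also has phospholipase activity, was at 238.5, 192.7 and 233.2 CPM in wild type against 254.8, 285.9 and 269.8 CPM in p63 alphaKO. Its groups did not overlap, and the log2 fold change was 0.29 (SE 0.21, 95% interval -0.15 to 0.73, limma adjusted p = 0.885).

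Prdx1 was at 1080, 899.6 and 860.5 CPM in wild type against 986.4, 794.5 and 1332 CPM in p63 alphaKO. Prdx2 was at 226.9, 273.6 and 567.3 CPM in wild type against 365.3, 283.9 and 737.7 CPM in p63 alphaKO, so wild type replicate 15 and p63 alphaKO replicate 11 stood well above the rest of their groups. The opposite-strand partner of Prdx2 is Junb, an AP-1 factor, at 286.6 to 386.7 CPM over all libraries. Prdx4, the peroxiredoxin of the endoplasmic reticulum, was at 11.3, 7.15 and 18.1 CPM in wild type against 19.6, 14.3 and 28.8 CPM in p63 alphaKO, with overlap through wild type replicate 15. Its log2 fold change of 0.77 (95% interval -0.04 to 1.57, limma adjusted p = 0.794) was 0.46 without wild type replicate 14 and 1.08 without replicate 15. Prdx4 lies on the X chromosome, and Xist, transcribed from an inactive X, reached 290.6 and 673.0 CPM in wild type replicate 13 and p63 alphaKO replicate 11, and at most 0.32 CPM elsewhere; the part of sex in this value was not tested. Prdx5 ranged from 290.4 to 392.0 CPM over all libraries.

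Glutathione peroxidases reduce peroxides with glutathione. Gpx1, a selenoprotein of the cytosol, was at 323.3, 304.6 and 475.5 CPM in wild type against 317.4, 295.6 and 634.8 CPM in p63 alphaKO. As for Prdx2, replicates 15 and 11 were the high libraries of their groups. Its log2 fold change was 0.12, and -0.23 without p63 alphaKO replicate 11. Gpx4, which removes lipid peroxides and guards against ferroptosis, was at 18.2, 29.5 and 21.9 CPM in wild type against 12.3, 15.3 and 24.7 CPM in p63 alphaKO. Replicates 9 and 10 lay below every wild type library and replicate 11 within the range, and the log2 fold change was -0.42 (95% interval -1.14 to 0.29, limma adjusted p = 0.906). Gpx2, a gastrointestinal form, ranged from 1.59 to 7.31 CPM over all libraries, on 26 and 25 reads.

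Superoxide dismutases turn superoxide into hydrogen peroxide, which catalase breaks down. Sod1, the cytosolic enzyme, was at 105.3, 96.7 and 158.5 CPM in wild type against 153.4, 82.0 and 168.1 CPM in p63 alphaKO. Sod2, the mitochondrial enzyme, was at 88.6, 107.3 and 77.2 CPM in wild type against 116.0, 71.7 and 48.8 CPM in p63 alphaKO. For both genes the p63 alphaKO values ran beyond the wild type range on either side, with log2 fold changes of 0.13 and -0.28. Cat, catalase, ranged from 22.9 to 24.5 CPM in wild type against 17.7 to 26.9 CPM in p63 alphaKO (-0.05).

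Glutathione S-transferases couple glutathione to electrophiles. Gsto1, an omega-class enzyme, was at 707.0, 701.9 and 869.7 CPM in wild type against 739.8, 701.5 and 1183 CPM in p63 alphaKO. Gsta4, which handles the lipid peroxidation product hydroxynonenal, was at 43.1, 91.7 and 145.2 CPM in wild type against 78.5, 80.6 and 196.3 CPM in p63 alphaKO. In both genes replicates 15 and 11 were the high libraries, and without p63 alphaKO replicate 11 the log2 fold changes of 0.17 and 0.37 became -0.07 and -0.06. The microsomal Mgst1 and Mgst2 ranged from 9.66 to 28.3 CPM and from 18.7 to 45.9 CPM over all libraries, with log2 fold changes of 0.25 and 0.20.

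The other 3 transferases were read rarely. Gstm1 had 42 reads in wild type and 32 in p63 alphaKO, Gstp1 had 48 and 25, and Gsta1 had 7 and 10. Gsta1 was listed at 0 in wild type replicate 14, which allows up to 0.933 CPM there. Near-identical copies can share their reads: the last 500 bases of Gstp1 and Gstp2 transcripts share a run of 369 bases, and those of Gsta1 and Gsta2 a run of 93. Gstp2 was listed at 0 in every library and Gsta2 at 0.0 to 5.29 CPM, so the values of Gstp1 and Gsta1 are uncertain.

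NADPH, the reductant behind glutathione reductase, thioredoxin reductase and the carbonyl reductases, comes in good part from the pentose phosphate pathway and malic enzyme. Over the 6 libraries the coefficient of variation was 9.71% for Me1, 9.97% for Tkt, 12.0% for Taldo1, 19.6% for Pgd and 23.5% for G6pdx. Pgd, a dehydrogenase of the oxidative branch, was at 144.5, 216.4 and 175.7 CPM in wild type against 204.1, 138.0 and 146.4 CPM in p63 alphaKO. Tkt, transketolase, was at 160.6, 135.5 and 182.0 CPM in wild type against 165.8, 164.6 and 148.7 CPM in p63 alphaKO. The groups overlapped for all 5, with log2 fold changes from -0.14 to 0.17, and every interval of the 5 lay inside a 2-fold change. Me1, malic enzyme, ranged from 87.7 to 100.1 CPM in wild type against 94.6 to 110.6 CPM in p63 alphaKO, Taldo1, transaldolase, from 120.9 to 143.9 and 135.0 to 172.2 CPM, and G6pdx, the first enzyme of the pathway and X-linked, from 54.6 to 62.8 and 40.0 to 83.1 CPM.

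Nqo1, the quinone reductase often used as a readout of NRF2 activity, was at 7.23, 4.04 and 5.72 CPM in wild type against 4.57, 5.00 and 11.8 CPM in p63 alphaKO. These levels rest on 54 and 45 reads, and only p63 alphaKO replicate 11 lay outside the wild type range. The log2 fold change was 0.20 (SE 0.45, 95% interval -0.75 to 1.16, limma adjusted p = 0.987), and -0.18 without that library. Hmox1, heme oxygenase, was at 26.7, 13.4 and 33.7 CPM in wild type against 21.0, 40.3 and 17.6 CPM in p63 alphaKO (0.10). Abcc1, an exporter of glutathione conjugates, was at 80.1, 71.5 and 51.8 CPM in wild type against 73.1, 57.3 and 58.8 CPM in p63 alphaKO (-0.09). Neither gene separated the groups. Osgin1, a growth inhibitor induced by oxidative stress, had 8 reads in wild type and 10 in p63 alphaKO, and was listed at 0 in p63 alphaKO replicate 10.

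**Figure D3:**
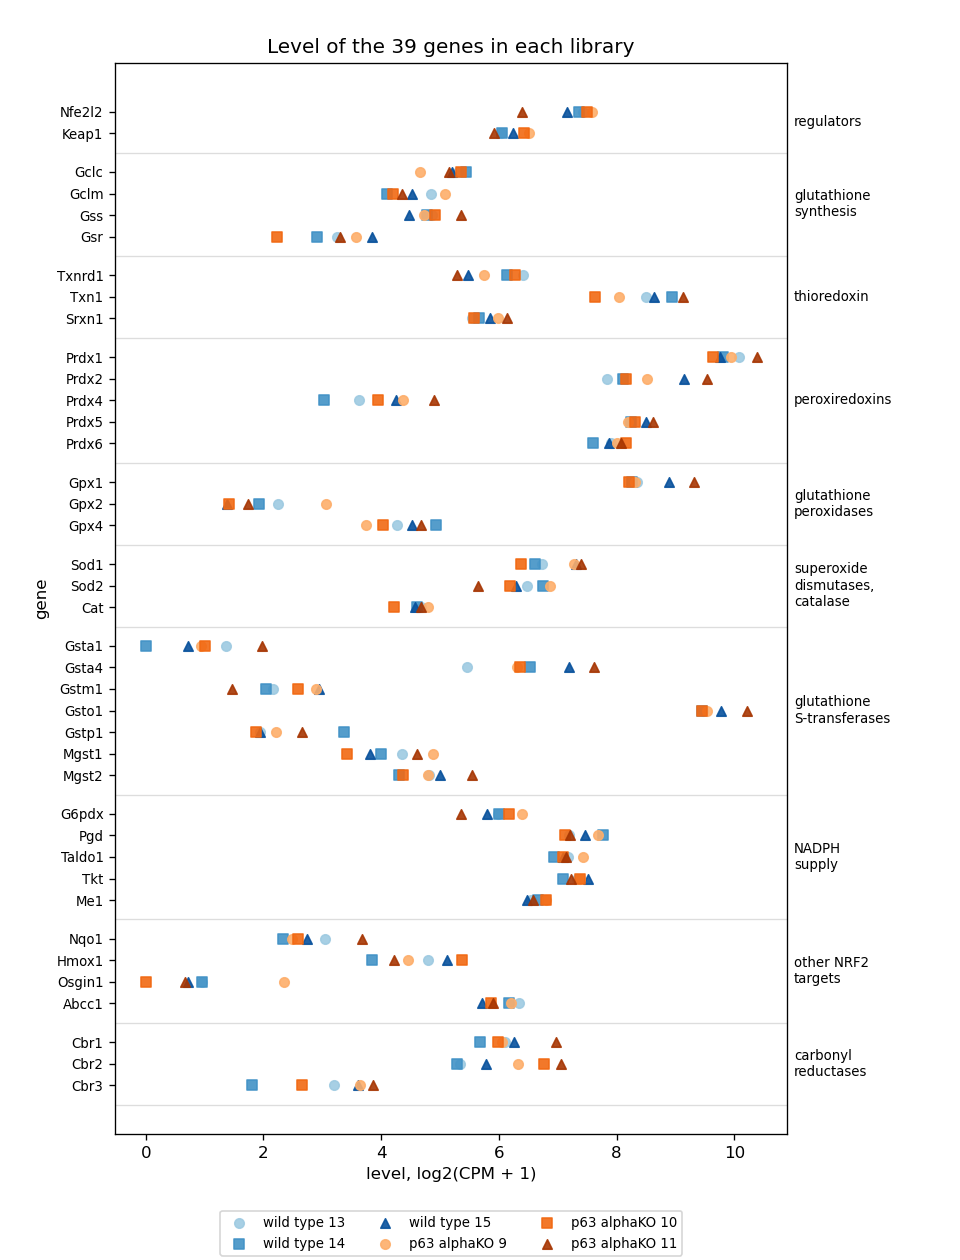
Level of each of the 39 genes in each of the 6 libraries, as log2(CPM + 1), grouped by role, with wild type in blues and p63 alphaKO in oranges. Apart from Cbr2 and Prdx6, the colours of the groups interleave in every row, and p63 alphaKO replicate 11 (brown triangles) is often at an end of its row.

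The extreme values of the members came unevenly from the 6 libraries. p63 alphaKO replicate 11 was the highest of the 6 libraries for 17 of the 39 members (43.6%), against 23.5% of all genes tested. It was the lowest for 6 members, namely Nfe2l2, Keap1, Txnrd1, Sod2, Gstm1 and G6pdx (15.4%, against 26.3% of all genes). Replicate 9 was the highest for 10 members (25.6%, against 16.1% of all genes). The lowest value came from wild type replicate 14 for 12 members (30.8%, against 17.7%) and from p63 alphaKO replicate 10 for 11 (28.2%, against 13.0%). For 12 members (30.8%) wild type replicate 15 and p63 alphaKO replicate 11 were each the highest of their group, against 18.0% of all genes. Summed over the role, peroxiredoxins stood at 148.6% of the wild type mean in replicate 11 and at 103.2% and 91.3% in replicates 9 and 10. Glutathione peroxidases stood at 168.1% in replicate 11, against 85.6% and 79.4%, and glutathione S-transferases at 161.3%, against 97.8% and 90.7%. A sum follows its highest genes. In replicate 11 Gpx1 gave 634.8 of 661.8 CPM, and Gpx4 (24.7 CPM) and Gpx2 (2.35 CPM) lay within the wild type range. Gsto1 gave 1183 of 1459 CPM. Gsto1, Gsta4, Gsta1 and Mgst2 were highest in replicate 11, Gstm1 was lowest there, and Gstp1 and Mgst1 were neither. The sum of the regulators went the other way, to 62.6% in replicate 11, against 123.5% and 116.5%.

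The carbonyl reductases were the role whose summed level was above the wild type range in all 3 p63 alphaKO libraries, at 155.7, 176.0 and 269.2 CPM against 115.3, 90.8 and 140.4 CPM; most of that difference was Cbr2. Over all 39 members the sum was 5083 ± 396.9 CPM in wild type against 5573 ± 1242 CPM in p63 alphaKO (SD, n = 3 each), and 4877 CPM over replicates 9 and 10 alone. Replicate 11 was also the library of fewest reads and of the lowest keratinocyte and melanocyte marker sums given above. Xist was at 673.0 CPM in it, at 0 in replicates 9 and 10, and at 290.6 CPM in wild type replicate 13. The part of these features in the values of replicate 11 was not tested.

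**Figure D4:**
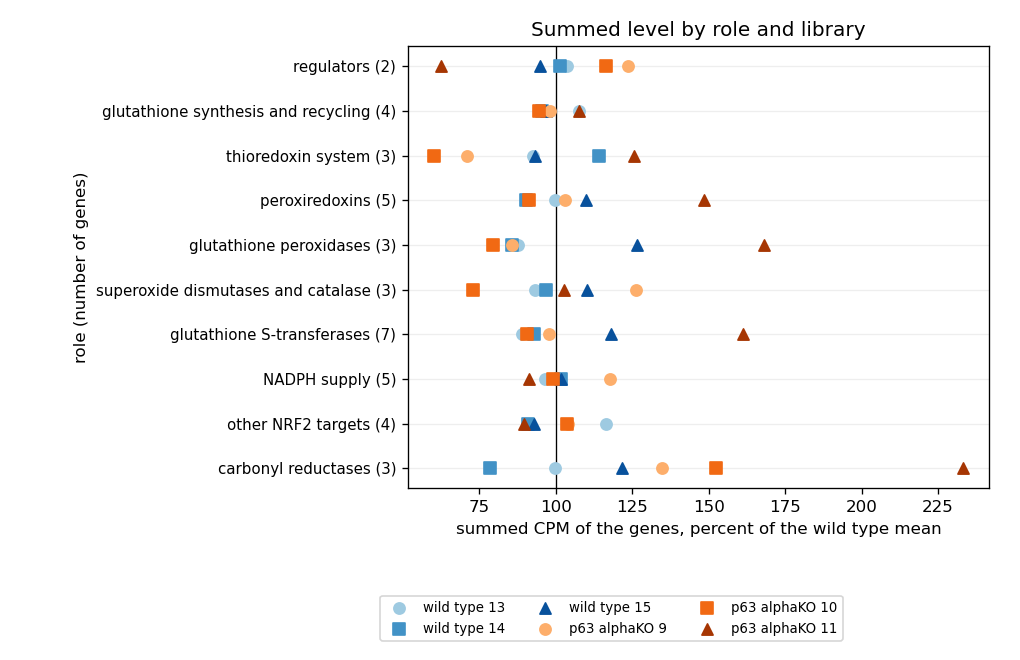
Summed CPM of the genes of each role (rows, with the number of genes) in each library, as a percent of the wild type mean of that role (vertical line at 100). p63 alphaKO replicate 11 stands apart for glutathione peroxidases (168.1%), glutathione S-transferases (161.3%) and peroxiredoxins (148.6%). Gpx1 makes up most of the glutathione peroxidase sum, and Gsto1 most of the glutathione S-transferase sum. For the carbonyl reductases all 3 p63 alphaKO libraries (134.8% to 233.1%) lie above the wild type libraries.

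Other genes of the same pathway gave a like picture. A list of 67 further genes of glutathione, thioredoxin, iron and NRF2 biology had 58 tested members. None passed the threshold by limma, edgeR or DESeq2, and 2 had an unadjusted limma p under 0.05, against 6.36% of all genes. Of the 58, 40 had log2 fold changes above 0 (69.0%, against 50.7% of all genes), and the median was 0.14 against 0.006. As for the members, p63 alphaKO replicate 11 was often the highest library, for 22 of the 58 (37.9%, against 23.5% of all genes). The lean upward in this list is thus not independent of the one among the members. The 4 of smallest p were Idh1, Gpx8, Dcxr (above) and Gstt2. Idh1, the cytosolic isocitrate dehydrogenase that makes NADPH, was at 70.7, 58.1 and 39.1 CPM in wild type against 82.2, 69.3 and 115.2 CPM in p63 alphaKO (a difference of 0.67 on the log2 scale, limma adjusted p = 0.758). Its groups overlapped through p63 alphaKO replicate 10.

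Gpx8, a peroxidase of the endoplasmic reticulum, was at 22.3, 21.8 and 41.6 CPM in wild type against 34.7, 37.3 and 74.1 CPM in p63 alphaKO (0.73, limma adjusted p = 0.775). Its groups overlapped through wild type replicate 15, and the log2 fold change was 0.39 without p63 alphaKO replicate 11. Gstt2, a theta-class transferase, had 3 reads in wild type and 12 in p63 alphaKO, a ratio of rates of 5.54 (exact 95% interval 1.5 to 30.6, for counting error on pooled reads alone; limma adjusted p = 0.821). The groups did not overlap for 4 of the 58, a share of 6.90% against 11.5% of all genes. They were picked out after their values were seen: Sqstm1, Gstm2 and Pgls on the higher side and Msra on the lower. The highest wild type and lowest p63 alphaKO values were 116.58 and 116.64 CPM for Sqstm1, and 18.65 and 18.81 CPM for Gstm2. Both gaps are smaller than 1 read, which is at least 0.311 CPM in any library. Msra had 41 reads in wild type and 15 in p63 alphaKO. Slc7a11, the cystine importer that feeds glutathione synthesis, was likewise picked out afterwards, at 25.5, 26.7 and 20.7 CPM in wild type against 38.4, 24.3 and 28.2 CPM in p63 alphaKO, with overlap.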

How the data were processed

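RNA of 6 keratinocyte cultures was sequenced from transcript 3' ends. The submitters' processing notes name STAR, HTSeq and mm10, without roles. Versions, annotation, strand setting, filters and any molecular identifiers: not given in the sources used here. Per library, the authors deposited CPM with 2 decimals. Dividing by the value of 1 read gave whole reads for 100% of values above 0 (within 0.1 read). Reads may be PCR copies, so intervals on reads cover counting error only.

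The test was limma 3.58.1 (R 4.3.3) with a mean-variance trend on log2(CPM + 1), two-sided, over genes averaging 1 CPM or more, adjusted by Benjamini-Hochberg and called under 0.05. Fold changes are p63 alphaKO over wild type on that scale. edgeR 4.0.16 and DESeq2 1.42.0 were run on the recovered reads as alternatives; the code was tested on simulated data. Values per library are given for Nfe2l2, Keap1, Nqo1, the carbonyl reductases, members with an unadjusted p under 0.05 or groups that did not overlap, and the 2 members of highest mean CPM in each role; a few others were added. From the further genes, the 4 of smallest p were named. A 3' end assay does not scale with transcript length, so CPM were not divided by length. Members and lists were chosen with earlier results of these data known.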

Additional observations from a re-analysis of the deposited data

How the results depend on the processing

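No paired analysis was made, because the labels name no litter or batch and the groups share no replicate numbers. Whether libraries of the 2 groups belong in pairs is not known. The count of members past the threshold was 0 with every alternative except DESeq2 (1, Cbr2) and the fit without wild type 15 and p63 alphaKO 11 together (2, Cbr2 and Txn1). Over all genes the count of 5 became 2 with a pseudocount of 0.5, 3 with a pseudocount of 5, 1 with no filter, 2 with a minimum mean of 5 CPM, 2 by edgeR, 18 by DESeq2, 48 without those 2 libraries together, and 2 to 13 when 1 library was left out. The adjusted p of Cbr2 ranged from 0.0191 to 0.999 over its alternatives. Members above 0 numbered 21 to 27, of the 34 to 39 tested. The antioxidant core was found for 2 members (6.06%, against 3.14% of tested genes) when an A was required after it and for 18 (54.5%, against 47.9%) as TGANNNNGC, in place of 10 (30.3%, against 16.9%).

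Of 634 log2 fold changes recomputed for the members and 4 further genes, 47 changed sign, in 25 genes, none past the threshold. Tkt (0.01) was -0.008 with TMM scaling, -0.019 by edgeR and -0.012 by DESeq2. Without the 2 libraries together Nfe2l2 was 0.14, Prdx1 -0.16, Gpx1 -0.035, Gstm1 0.64, Mgst1 -0.031 and Nqo1 -0.16. Leaving out 1 library gave -0.38 to 0.22 for Nfe2l2, -0.21 to 0.23 for Gclm, -0.57 to 0.10 for Gsr, -0.50 to 0.004 for Txnrd1, -0.09 to 0.28 for Prdx1, -0.025 to 0.77 for Prdx2, -0.073 to 0.14 for Prdx5, -0.23 to 0.32 for Gpx1, -0.27 to 0.55 for Gpx2, -0.064 to 0.45 for Sod1, -0.60 to 0.016 for Sod2, -0.17 to 0.13 for Cat and -0.10 to 0.77 for Gsta4. It gave -0.35 to 0.36 for Gstm1, -0.069 to 0.31 for Gsto1, -0.41 to 0.31 for Gstp1, -0.038 to 0.69 for Mgst1, -0.12 to 0.47 for Mgst2, -0.16 to 0.36 for G6pdx, -0.31 to 0.009 for Pgd, -0.10 to 0.11 for Tkt, -0.18 to 0.42 for Nqo1, -0.27 to 0.36 for Hmox1, -0.27 to 0.042 for Abcc1 and -0.013 to 0.89 for Cbr3. The cause of these shifts was not tested. With 3 libraries a group, and 54 and 45 reads for Nqo1, depth limits what can be seen in the low genes.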
